A study of Mus musculus with 30 samples.

Results

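The comparison described here sets a GM-CSF+IL-6 culture of mouse bone marrow against a GM-CSF+G-CSF culture of the same tissue, as a test of which genes differ when only the second cytokine of the cocktail differs. Its members are the arrays whose titles name BALB/c bone marrow with one or the other cocktail, 3 for each cocktail, or 6 of the 30 arrays of the series. Both groups were BALB/c bone marrow kept in vitro for 4 days with GM-CSF, and both were enriched for CD11b+ cells with magnetic beads before total RNA was hybridised to Affymetrix MOE430 2.0 arrays, so GM-CSF, strain, time and the CD11b gate were shared. The study used these cultures as in vitro models of myeloid-derived suppressor cells (MDSC), beside 3 arrays of CD11b+ cells from fresh BALB/c bone marrow and 21 arrays of spleen and tumor CD11b+ cells. Of the 21, 9 were from C57BL/6 mice (healthy spleen, EL-4 tumor, MCA203 tumor). The others were from BALB/c mice (healthy spleen, C26-GM spleen, C26-GM tumor, 4T1 tumor). The age and sex of the mice, the cytokine doses and any pooling of animals are not given in the sources used here. The labels do not say whether the 3 arrays of a culture came from separate mice or dishes, so the spread between them may be technical. The p-values rest on a spread per gene that is pooled over all 10 groups of the series, not on these 6 arrays alone.

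IL-6 acts through its receptor chain Il6ra and the shared signalling chain gp130 (Il6st). G-CSF acts through its own receptor, Csf3r. Both activate JAK kinases and the transcription factor STAT3, which in myeloid cells switches on its own inhibitor Socs3 and the C/EBP factors that drive granulocyte production under stress. GM-CSF, present in both cultures, signals mainly through STAT5 and is the cytokine most used to grow dendritic cells from marrow. Dendritic cells and activated macrophages present peptides on MHC class II, whose genes are turned on together by the coactivator Ciita through conserved promoter elements, among them the Y box, an inverted CCAAT motif.

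The promoters below belong to genes described in this comparison, not all of which were called. They are 90-base stretches before the RefSeq transcription start (build GRCm38.p6), written 5′ to 3′ along the strand of the gene. The first 4 are MHC class II genes that were higher with IL-6, and their capitals mark the Y box letters GATTGG. Ccl17 is the chemokine with the largest difference between the cultures, and Socs3 is the classical STAT3 target; their capitals mark the STAT motif TTCNNNGAA, which reads the same on both strands.
H2-Aa, chr17:34287854-34287943, minus strand: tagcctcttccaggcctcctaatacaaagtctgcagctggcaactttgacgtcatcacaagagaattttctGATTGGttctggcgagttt
H2-Eb1, chr17:34305747-34305836, plus strand: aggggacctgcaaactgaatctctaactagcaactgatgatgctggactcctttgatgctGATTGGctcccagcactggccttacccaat
H2-Ob, chr17:34238785-34238874, plus strand: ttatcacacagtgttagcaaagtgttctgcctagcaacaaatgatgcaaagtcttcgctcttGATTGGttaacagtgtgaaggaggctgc
H2-DMb2, chr17:34145129-34145218, plus strand: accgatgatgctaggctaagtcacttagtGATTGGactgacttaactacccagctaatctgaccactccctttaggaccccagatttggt
Ccl17, chr8:94810313-94810402, plus strand: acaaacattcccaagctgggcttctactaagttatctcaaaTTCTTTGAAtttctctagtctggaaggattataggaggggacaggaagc
Socs3, chr11:117969467-117969556, minus strand: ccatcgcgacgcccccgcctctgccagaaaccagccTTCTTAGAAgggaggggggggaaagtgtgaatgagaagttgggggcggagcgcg
The capitals begin 49 bases before the start in H2-Aa, 60 in H2-Eb1, 58 in H2-Ob, 91 in H2-DMb2, 99 in Ccl17 and 154 in Socs3. GATTGG, on either strand, stood in the 300-base window (250 before and 50 after the start) of 7 of 7 class II genes that had a RefSeq window, against 18.2% of all genes with one. It stood in 15 of 76 genes called higher with IL-6 (19.7%) and 4 of 29 called higher with G-CSF (13.8%). This motif was chosen after the class II values had been seen. TTCNNNGAA was present in 7 of 76 (9.21%) and 3 of 29 (10.3%) of these genes, against 9.55% of all genes. Neither motif contains the other, and a match here is a description of the letters only.

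Before the results, 2 arrays have to be set apart. The third GM-CSF+IL-6 array and the second GM-CSF+G-CSF array had a wide spread of values (SD over probe sets 2.26 and 2.23), while the other 4 were narrower (1.96 to 1.98). On the 24 arrays of the other groups this SD ran from 2.06 to 2.28. The wide-spread arrays correlated at 0.988 with each other and at 0.941 to 0.954 with their own cultures, and narrow arrays of one culture correlated at 0.993. Within the GM-CSF+IL-6 culture 4003 genes, and within the GM-CSF+G-CSF culture 2867 genes, differed at least 2-fold between the wide-spread array and the mean of the narrow ones. Each culture holds 1 wide-spread and 2 narrow arrays, so the difference of means is balanced, and a term for the wide-spread arrays was part of the fit. No pair of arrays shared more than 50 of 45101 values, so none was a copy.

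The labels were checked against markers. Of 28 probe sets that separated C57BL/6 from BALB/c arrays by at least 2 on the log2 scale outside the cultures, 25 lay nearer the BALB/c level in the GM-CSF+IL-6 culture and 26 in the GM-CSF+G-CSF culture. Itgam, which encodes CD11b, was 9.35, 10.18 and 10.69 with IL-6 and 10.51, 11.19 and 10.75 with G-CSF (log2 difference -0.74, adjusted p = 0.379), well above the lowest percentile of values on these arrays (2.20 to 2.24). The leukocyte antigen Ptprc (CD45) lay between 11.53 and 11.71 on all 6 in its brightest probe set, while another read 1.33 higher with IL-6. RNA integrity probes did move with the groups: the 3′ minus 5′ difference of actin was 0.53 to 0.68 on the GM-CSF+IL-6 arrays and 0.27 to 0.35 on the GM-CSF+G-CSF arrays, and that of Gapdh was 0.12 to 0.31 and -0.18 to -0.07. The actin range over the 24 other arrays was 0.01 to 2.42, and the part of this difference in the results was not tested.

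Of 18194 genes, 146 were called different, which here means an adjusted p below 0.05 (limma's moderated t with Benjamini-Hochberg adjustment) and at least a 2-fold difference, or 1 on the log2 scale. Of these, 98 (0.539% of the genes tested) were higher in the GM-CSF+IL-6 culture, and 48 (0.264%) were higher in the GM-CSF+G-CSF culture. With the adjusted p alone the counts were 463 (2.54%) and 290 (1.59%). These shares over all genes are the measure for the list counts below. The differences ran further on the IL-6 side: the median among called genes was 1.34 and the largest 4.14, against 1.17 and 1.81 on the G-CSF side, while the median over all genes was -0.005. A term fitted to 1 remaining wide-spread array absorbs it, so leaving out either of them gives the narrow arrays alone. The 48 became 29 without the first GM-CSF+IL-6 array and 29 without the third GM-CSF+G-CSF array, and the 98 became 61 when all probe sets of a gene were averaged. Among genes named below, Atp6v0d2, Steap4, Neat1, Cd302, Ccr2, Maf, Dpp4, Csf1, Mmp19, Ifngr2, Plet1, Srrm2 and Sfpq were not called with that average. Of 54 list members that passed the adjusted p under 2-fold, 12 also passed on leaving out each of the 6 arrays in turn, namely H2-DMa, Cd74, Ciita, C1qa, Itgb7, Mcm7, Pfkp, Slc7a5, Gla, Mmp14, Tlr1 and Tlr2. The other 42 did not pass without at least 1 of the arrays.

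**Figure D1:**
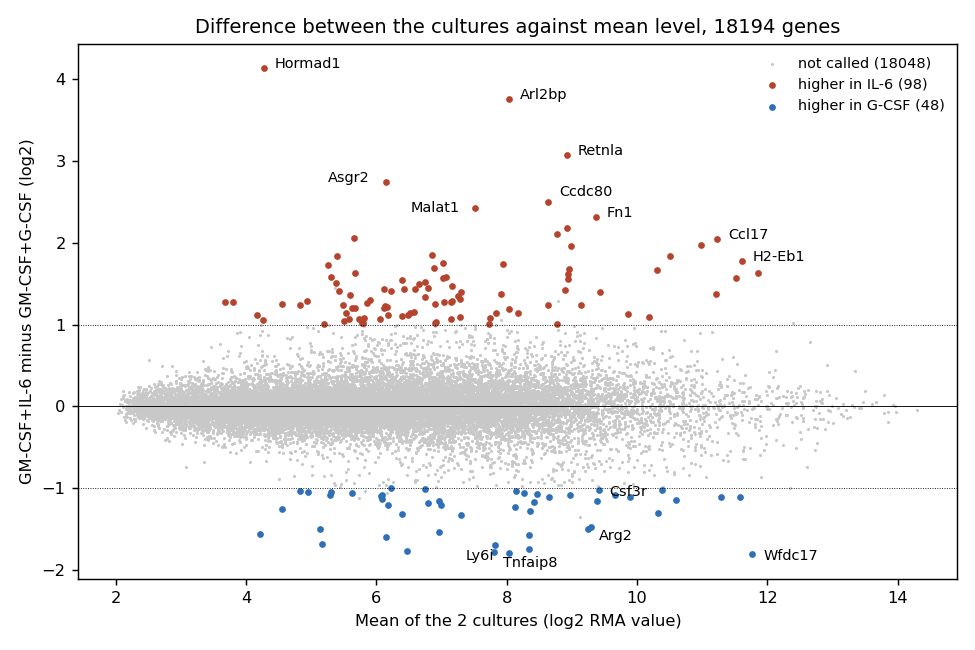
Each point is 1 of 18194 genes, with the mean of both cultures on the x axis and the GM-CSF+IL-6 minus GM-CSF+G-CSF difference on the y axis, both in log2 RMA units; dotted lines mark 2-fold. Called genes are colored, 98 higher with IL-6 and 48 higher with G-CSF, and the IL-6 side reaches 4.14 while the G-CSF side ends at 1.81.

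MHC class II genes formed the clearest group on the IL-6 side. The pairs of chains that make the classical class II molecules were all higher with IL-6, as were the chains H2-DMa and H2-DMb2 of the DM editor that loads peptides onto them, the invariant chain Cd74 that chaperones them, and Ciita. In these sentences the values are log2 RMA levels in the order of replicates 1, 2 and 3, the third being the wide-spread one with IL-6 and the second with G-CSF. H2-Aa, the alpha chain of I-A, was 12.88, 12.60 and 12.55 with IL-6 and 11.59, 11.30 and 10.24 with G-CSF, a difference of 1.63 ± 0.26 (SE) or 3.1-fold (adjusted p = 0.000245). Its partner H2-Ab1 was 12.35, 12.16 and 12.39 against 11.12, 10.90 and 10.16 (1.57 ± 0.21, adjusted p = 2.68e-05). All GM-CSF+IL-6 arrays lay above all GM-CSF+G-CSF arrays for both chains, and the third GM-CSF+G-CSF array was the lowest.

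H2-Eb1, the beta chain of I-E, was 12.62, 12.44 and 12.43 against 11.25, 11.04 and 9.88 (1.77 ± 0.22, adjusted p = 1.55e-05). The alpha chain H2-Ea, which BALB/c mice carry intact and C57BL/6 mice lack, was 12.03, 11.69 and 11.97 against 10.77, 10.91 and 9.89 (1.37 ± 0.21, adjusted p = 0.000189). The peptide editor subunit H2-DMb2 was 11.30, 10.95 and 11.19 against 9.49, 9.94 and 9.0 (1.67 ± 0.21, adjusted p = 1.69e-05). None of these 3 genes overlapped between the cultures; of all genes, 6.34% did not. The probe sets of each gene gave 0.95 to 1.77 for H2-DMb2, 1.52 to 2.17 for H2-Aa, 1.57 to 1.94 for H2-Ab1 and 0.20 to 1.49 for H2-Ea, so no order among them is drawn. H2-DMa (0.92 ± 0.16, adjusted p = 0.000646), Cd74 (0.79 ± 0.15, adjusted p = 0.00122) and Ciita (0.99 ± 0.18, adjusted p = 0.00108) passed the adjusted p and stayed just under 2-fold.

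The DO chains, which restrain the DM editor in B cells and some dendritic cells, were low. H2-Ob was 4.55, 3.87 and 5.73 against 3.24, 3.90 and 3.68 and was called (1.11 ± 0.24, adjusted p = 0.00566), although its second GM-CSF+IL-6 value lay below the second GM-CSF+G-CSF value. H2-Ob was not called without the wide-spread arrays (difference 0.75) or without the first GM-CSF+IL-6 array. H2-Oa was 6.79, 6.56 and 7.16 against 6.35, 6.60 and 5.75 and did not pass (0.61, adjusted p = 0.0794). H2-Aa stood at 9.17 to 9.58 in fresh marrow, below both cultures, and at 11.13 to 13.72 in the spleen and tumor groups, a range that held the GM-CSF+IL-6 values.

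**Figure D2:**
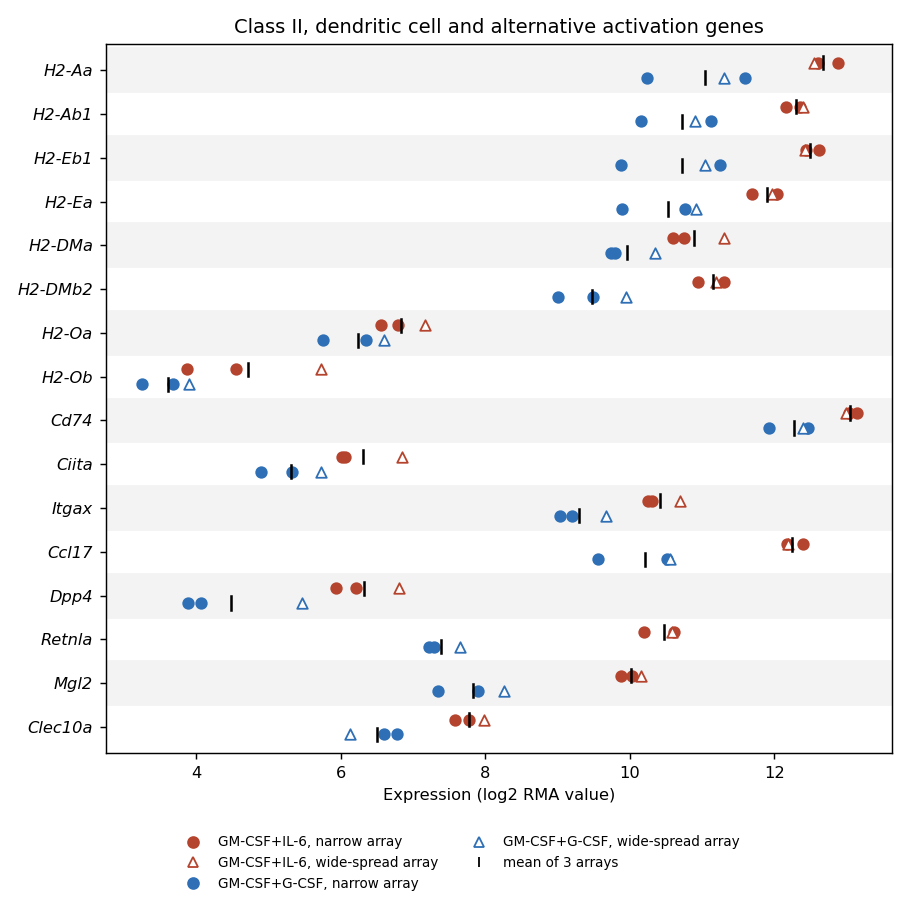
Levels of 16 genes (x axis, log2 RMA value) on each of the 6 arrays, with red for GM-CSF+IL-6, blue for GM-CSF+G-CSF, filled circles for narrow arrays, open triangles for the wide-spread ones and black bars for means of 3. The red points lie to the right of the blue points in every row except H2-Ob and H2-Oa, where 1 red value lies below the highest blue one.

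Across the list of dendritic cell and antigen presentation genes, 8 of 25 measured members were called higher with IL-6 and 0 lower, and 13 of 25 passed the adjusted p alone, all higher with IL-6. Over all genes, 0.539% were called higher with IL-6 and 2.54% passed the adjusted p in that direction. The called members were H2-Aa, H2-Ab1, H2-Eb1, H2-Ea and H2-DMb2, already described, with Itgax, Dpp4 and Ccl17. The list's median difference was 0.77 over its 25 members, of which 20 were above 0. In the narrow arrays alone 8 members were again called, with a median of 0.63, and leaving out any 1 array gave 8 or 9. Itgax, the CD11c chain used to identify dendritic cells, was 10.25, 10.31 and 10.70 against 9.20, 9.67 and 9.03 (1.12 ± 0.20, adjusted p = 0.00101). The transcription factors Irf4 (0.77 ± 0.20, adjusted p = 0.0211) and Zbtb46 (0.74 ± 0.19, adjusted p = 0.0204), known from conventional dendritic cells, passed the adjusted p under 2-fold. Irf4 did not pass on leaving out any 1 array, nor Zbtb46 in the narrow arrays alone or without the first GM-CSF+IL-6 or the third GM-CSF+G-CSF array. Their differences also depend on the probes: the other probe set of Irf4 read -0.24, and those of Zbtb46 read 0.03, -0.40 and 0.63. In bulk arrays such as these, fewer cells of a type and less RNA per cell cannot be told apart.

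Ccl17, a chemokine that draws Ccr4-bearing T cells and is made by dendritic cells and alternatively activated macrophages, was 12.39, 12.17 and 12.19 with IL-6 and 10.51, 10.56 and 9.56 with G-CSF, or 4.12-fold higher (2.04 ± 0.36, adjusted p = 0.000943). Both cultures lay above every other group, since the highest of the 24 other arrays had 9.45 and the lowest culture array 9.56. Dpp4, the CD26 peptidase, was 6.21, 5.93 and 6.80 against 4.07, 5.46 and 3.89 (1.84 ± 0.19, adjusted p = 5.45e-07). Its difference was 2.09 in the narrow and 1.33 in the wide-spread arrays, where the GM-CSF+G-CSF array was the highest of its culture. The 4 probe sets that measured Dpp4 were all higher with IL-6, by 0.25 to 1.84. The chemokine receptor Ccr2, which brings monocytes out of the marrow, was 9.54, 9.40 and 9.88 against 7.55, 8.79 and 8.23 (1.42 ± 0.24, adjusted p = 0.000704), although 1 of its 4 probe sets read -0.35.

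Markers of alternative macrophage activation, the program driven by IL-4 and IL-13, were the next group, with 4 of 18 called higher with IL-6, 0 lower and a median of 0.52. The share called higher with IL-6 over all genes was 0.539%. Retnla, the secreted resistin-like protein Fizz1, was 10.20, 10.61 and 10.59 against 7.29, 7.65 and 7.22, a difference of 3.08 ± 0.51 or 8.46-fold (adjusted p = 0.000474). The galactose-binding lectin Mgl2 was 10.03, 9.88 and 10.15 against 7.90, 8.26 and 7.34 (2.18 ± 0.31, adjusted p = 8.83e-05). Its paralogue Clec10a, or Mgl1, was 7.77, 7.58 and 7.98 against 6.78, 6.12 and 6.59 (1.28 ± 0.21, adjusted p = 0.00049). The other called member was Ccl17. Clec10a fell just short of 2-fold in the narrow arrays alone (0.99), where 3 members were called. Arg1, the arginase of this program, was low in both cultures: 3.95, 4.18 and 5.10 with IL-6 and 3.98, 4.16 and 3.77 with G-CSF (0.44, adjusted p = 0.629), while it reached 12.82 on other arrays of the series. Retnla, in contrast, was at 9.18 to 10.13 in fresh marrow, so the GM-CSF+G-CSF culture lay below fresh marrow and the GM-CSF+IL-6 culture above it.

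The largest differences lay outside these lists. Hormad1, a protein of meiotic chromosome axes normally active in germ cells, was 5.92, 5.03 and 8.07 with IL-6 and 2.11, 2.22 and 2.27 with G-CSF (4.14 ± 0.29, adjusted p = 7.11e-10). All 27 arrays outside the GM-CSF+IL-6 culture lay between 2.03 and 2.86, close to the lowest percentile of values, where RMA gives no detection call. The 3 GM-CSF+IL-6 values spread over 3 log2 units (SD 1.565), more than the standard error, which pools the spread of all groups, conveys. The difference was 3.28 in the narrow and 5.85 in the wide-spread arrays.

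Arl2bp, a partner of the small GTPase Arl2 with a role at cilia and mitochondria, was 9.47, 9.88 and 10.38 against 6.35, 6.12 and 5.98 (3.76 ± 0.18, adjusted p = 2.95e-13), or 13.5-fold higher with IL-6. A second probe set gave 2.16 in the same direction. Across the series this gene followed strain more than organ: the 9 C57BL/6 arrays lay at 8.33 to 9.0, and the 18 BALB/c arrays outside the GM-CSF+IL-6 culture lay at 5.64 to 7.80. The GM-CSF+IL-6 culture, labelled BALB/c, was above both ranges at 9.47 to 10.38. H2-Ea, which also separates the strains (6.23 to 7.34 on C57BL/6 arrays), was within the BALB/c range in both cultures.

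Asgr2, a subunit of the asialoglycoprotein receptor, was 7.68, 7.07 and 7.82 against 4.64, 5.56 and 4.12 (2.75 ± 0.20, adjusted p = 1.18e-09), and no array outside the GM-CSF+IL-6 culture was above 5.56. Ccdc80, a secreted matrix-associated protein, was 9.73, 9.73 and 10.21 against 7.19, 7.71 and 7.26 (2.50 ± 0.21, adjusted p = 1.8e-08). Both cultures had more Ccdc80 than fresh marrow (5.00 to 5.53), and the C26-GM spleen arrays, from mice with a tumor that makes GM-CSF, came nearest with 7.77 to 8.94. These 4 genes were among 15 of the 98 whose GM-CSF+IL-6 values all exceeded the other 27 arrays of the series. Ccl17, Mgl2, Plet1 and Cd34 were others of the 15, while 4 of the 48 genes higher with G-CSF, F10 among them, exceeded all other arrays in the same way.

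**Figure D3:**
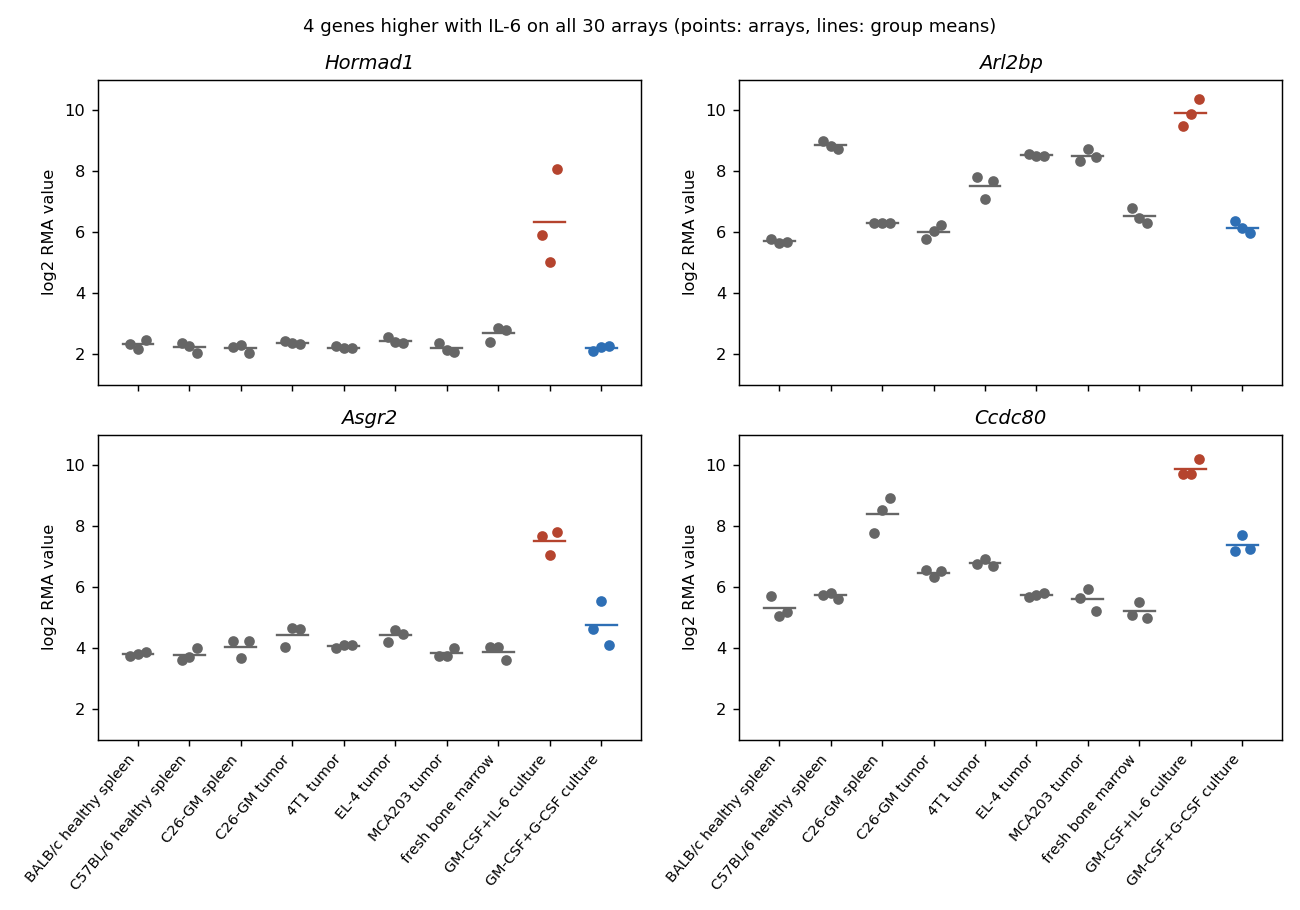
Levels (y axis, log2 RMA value) of Hormad1, Arl2bp, Asgr2 and Ccdc80 on all 30 arrays in 10 groups, with a line at each group mean; red marks the GM-CSF+IL-6 and blue the GM-CSF+G-CSF culture. The red points are the highest in each panel, Hormad1 is near 2 in all other groups, and Arl2bp is at 8.33 or more in the 3 C57BL/6 groups (C57BL/6 healthy spleen, EL-4 tumor, MCA203 tumor).

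Fibronectin, Fn1, a matrix glycoprotein, was 10.29, 10.58 and 10.71 against 7.83, 8.14 and 8.66 (2.32 ± 0.31, adjusted p = 4.27e-05); fresh marrow had 11.13, above both cultures. The growth factor receptor Fgfr1 was 6.59, 6.25 and 7.21 against 4.42, 5.16 and 4.28 (2.06 ± 0.26, adjusted p = 1.96e-05), but its other 2 probe sets gave differences down to 0.30, and the call was lost without probe sets that may cross-hybridise. Rnase2a, an eosinophil-associated ribonuclease with near-identical relatives that its probes may also read, was 9.48, 9.55 and 10.48 against 7.18, 8.0 and 7.99 (2.11 ± 0.44, adjusted p = 0.00424). Rnase2a was not called in the narrow arrays alone, where the difference was 1.93. The long noncoding RNA Malat1 cannot be given a direction. The probe set with the highest level read 9.23, 8.37 and 8.59 against 5.50, 7.70 and 5.73 (2.42 ± 0.34), but 4 of its 7 probe sets were lower with IL-6, down to -0.88, and the narrow and wide-spread arrays differed (3.18 and 0.90).

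Further genes called higher with IL-6 were named here after their values had been seen. Crip1, a small LIM-domain protein, was 11.96, 11.75 and 12.22 against 9.98, 10.23 and 9.80 (1.97 ± 0.14, adjusted p = 7.11e-10). Creatine kinase B, Ckb, was 10.18, 9.77 and 9.97 against 7.97, 8.11 and 7.96 (1.96 ± 0.23, adjusted p = 7.09e-06). The surface protein Plet1 was 11.52, 11.27 and 11.49 against 9.66, 10.16 and 8.96 (1.84 ± 0.36, adjusted p = 0.00213), and fresh marrow stood at only 3.68. Aif1, the macrophage calcium-binding protein Iba1, was 7.74, 7.20 and 8.39 against 5.71, 6.72 and 5.36 (1.85 ± 0.29), and Ly86, the MD-1 partner of the Toll-like receptor relative Rp105, was 7.88, 7.60 and 8.21 against 6.10, 6.17 and 6.16 (1.75 ± 0.15). The integrin chain Itgae (CD103) was 1.26 ± 0.18 higher and the inhibitory receptor Btla 1.02 ± 0.21 higher. Btla lost its call without the first GM-CSF+IL-6 or the third GM-CSF+G-CSF array.

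On the G-CSF side the largest difference was that of Wfdc17, a secreted whey-acidic-domain protein of activated macrophages, at 10.77, 10.82 and 11.01 with IL-6 and 12.70, 12.53 and 12.80 with G-CSF. It was 1.81 ± 0.24 higher with G-CSF, or 3.52-fold (adjusted p = 2.73e-05). Ly6i, a member of the Ly6 family of membrane-anchored proteins, was 6.99, 7.27 and 7.15 against 8.90, 9.13 and 8.76 (1.79 ± 0.20, adjusted p = 2.42e-06). Tnfaip8, a regulator of cell death and lipid signalling, was 6.52, 6.42 and 7.81 against 8.40, 9.26 and 8.44 (1.79 ± 0.13, adjusted p = 1.78e-09); its second probe set gave 0.28 in the same direction. These genes were chosen for a difference without overlap. Ly6i followed strain outside the cultures, at 7.75 to 9.30 on the 9 C57BL/6 arrays and 5.43 to 6.34 in the BALB/c groups, so the GM-CSF+G-CSF culture, labelled BALB/c, lay within the C57BL/6 range and the GM-CSF+IL-6 culture between the ranges.

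Nfam1, an activating receptor that signals through an ITAM motif, was 1.75 ± 0.41 higher with G-CSF (adjusted p = 0.0113), and Steap4, a metalloreductase, 1.69 ± 0.29 higher (adjusted p = 0.000588). The vacuolar proton pump subunit Atp6v0d2 was 6.47, 6.67 and 7.76 against 7.98, 9.29 and 8.72 (1.69 ± 0.45, adjusted p = 0.029), with its call lost on leaving out any 1 array. Nfam1 lost its call without the first GM-CSF+IL-6 array and without the first or the third GM-CSF+G-CSF array. Arg2, the mitochondrial arginase, was 8.10, 8.29 and 9.09 with IL-6 and 9.76 to 10.21 with G-CSF (1.50 ± 0.26, adjusted p = 0.000818). The endocytic lectin Cd302 was 1.48 ± 0.23 higher and the variant histone gene H3f3b 1.33 ± 0.27 higher, and H3f3b was not called without the third GM-CSF+G-CSF array. The long noncoding RNA Neat1 was 1.57 ± 0.17 higher in its brighter probe set, while the other read -0.21 on the G-CSF minus IL-6 scale.

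The cocktail receptors differed in 1 call. Csf3r, the G-CSF receptor itself, was 8.63, 8.76 and 9.31 with IL-6 and 9.75, 10.21 and 9.83 with G-CSF, 1.03 ± 0.22 higher with its own ligand in the cocktail (adjusted p = 0.00469). The arrays did not overlap, and both cultures lay below fresh marrow (11.31 to 11.62). The call was lost without the first GM-CSF+IL-6 array or the third GM-CSF+G-CSF array and with housekeeping centring, since the difference sits at the 2-fold limit. Il6ra (0.18, adjusted p = 0.744), Il6st (-0.05, adjusted p = 0.947), Csf2ra (-0.37, adjusted p = 0.423) and Csf2rb (-0.10, adjusted p = 0.802) did not pass. The 4 probe sets of Il6st ran from -0.98 to 0.22, with 3 higher with G-CSF, so its difference depends on the probes. Lifr (0.68, adjusted p = 0.0395) and Il3ra (0.49, adjusted p = 0.0134) passed the adjusted p alone, higher with IL-6, but neither did in the narrow arrays alone or without the first GM-CSF+IL-6 array.

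Genes of the IL-6 and STAT3 response gave no call, and most of those past the adjusted p were higher with G-CSF. Of 24 measured, 0 were called in either direction, 1 passed the adjusted p higher with IL-6 and 5 passed it higher with G-CSF, and the list's median was -0.44 against -0.005 over all genes. At an unadjusted p below 0.05 in limma, 2 members were higher with IL-6 and 11 with G-CSF, beside 2664 of all 18194 genes in either direction. Socs3 was 6.43, 6.50 and 8.16 with IL-6 and 7.30, 8.69 and 7.49 with G-CSF, 0.80 ± 0.18 higher with G-CSF (adjusted p = 0.00806). The wide-spread GM-CSF+IL-6 array was above the narrow GM-CSF+G-CSF arrays for this gene, and within each array set the G-CSF value was higher, by 0.93 and 0.52. Cebpb, the C/EBP factor of stress granulopoiesis, was 10.70, 11.05 and 11.24 against 11.52, 11.71 and 11.73 (0.66 ± 0.16, adjusted p = 0.0165), without overlap. Cebpd was 8.56, 8.82 and 9.58 against 9.33, 10.04 and 9.46 (0.63 ± 0.18, adjusted p = 0.0421). Fos (0.91 ± 0.23) and Myc (0.83 ± 0.20) were also higher with G-CSF, and the repressor Bcl6 was higher with IL-6 (0.74 ± 0.21, adjusted p = 0.0362). The 5 became 0 without the first GM-CSF+IL-6 array, without the third GM-CSF+G-CSF array and without the term for the wide-spread arrays, and 3 without the second GM-CSF+IL-6 array. Bcl6 did not pass without the first or second GM-CSF+IL-6 or the third GM-CSF+G-CSF array. Stat3 itself did not pass (-0.22, adjusted p = 0.585), nor did Cebpa (0.09).

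**Figure D4:**
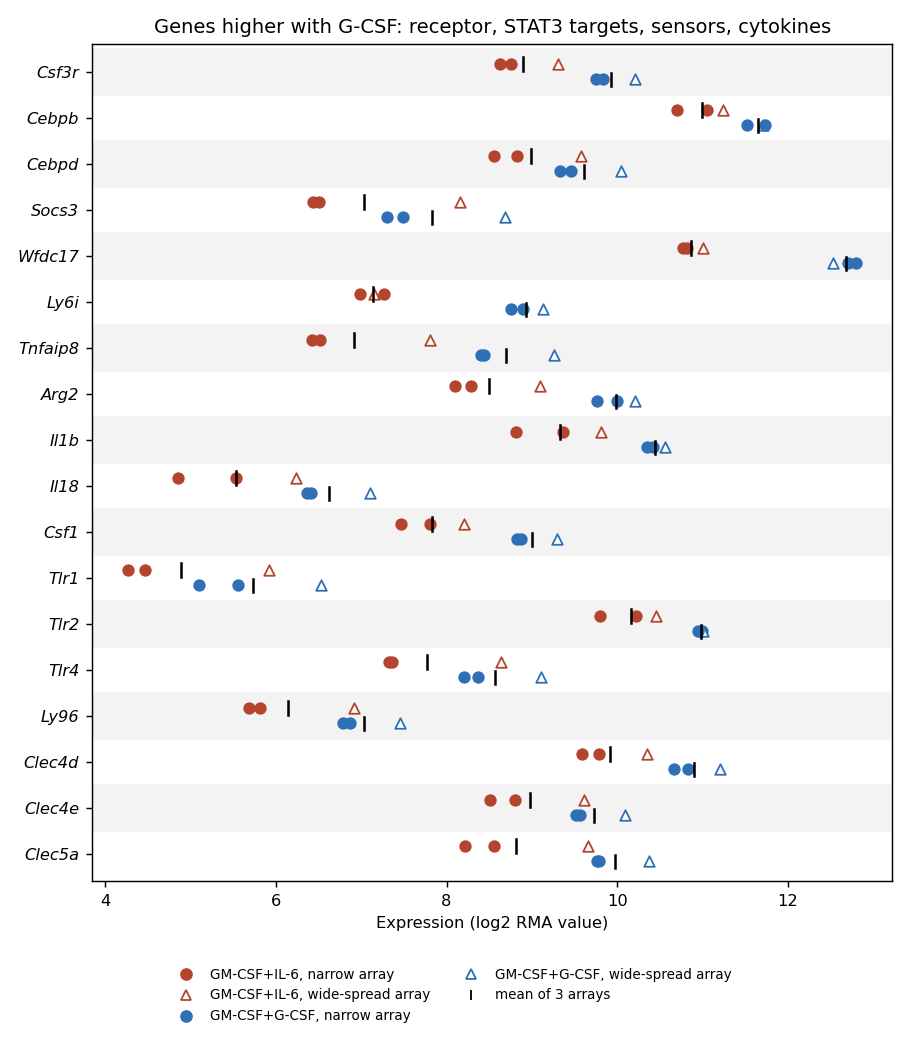
Levels of 18 genes (x axis, log2 RMA value) on the 6 arrays, drawn as red for GM-CSF+IL-6, blue for GM-CSF+G-CSF, filled circles for narrow and open triangles for wide-spread arrays, and black bars for means of 3. In each row the mean with G-CSF is the higher one, and for genes such as Socs3, Tlr1 and Tlr4 the red triangle overlaps the blue circles.

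Innate sensors followed the same direction. Of 24 pattern receptors and lectins, 8 passed the adjusted p higher with G-CSF and 1 (Clec10a) higher with IL-6, and the median was -0.43. Over all genes, 1.59% passed it higher with G-CSF and 2.54% higher with IL-6. Tlr2, which senses bacterial lipopeptides, was 9.80, 10.22 and 10.45 against 10.99, 11.01 and 10.95 (0.83 ± 0.15, adjusted p = 0.00104), and its partner Tlr1 was 4.47, 4.27 and 5.92 against 5.10, 6.53 and 5.56 (0.85 ± 0.16, adjusted p = 0.00186). The lipopolysaccharide receptor Tlr4 (0.79 ± 0.22) and its co-receptor Ly96, or MD-2 (0.90 ± 0.20), were higher as well. So were the lectins Clec4d (0.99 ± 0.23), Clec4e (0.75 ± 0.19) and the beta-glucan receptor Clec7a (0.58 ± 0.16). Clec5a, which activates myeloid cells through DAP12, was the 1 called at 2-fold, with 8.22, 8.56 and 9.66 against 9.79, 10.37 and 9.76 (1.16 ± 0.28, adjusted p = 0.0164), a call lost on leaving out any 1 of the narrow arrays. Values for these receptors stood higher on the wide-spread array of each culture, so that the GM-CSF+IL-6 one overlapped the GM-CSF+G-CSF range for Tlr1, Tlr4, Ly96 and Clec4e. The count of 8 was 2 without the first GM-CSF+IL-6 array, 2 without the third GM-CSF+G-CSF array and 2 without the term, 3 without the second GM-CSF+IL-6 array, 4 without the first GM-CSF+G-CSF array and 6 in the narrow arrays alone. Tlr1 and Tlr2 passed in every one of these fits that left out an array. Cd14 did not pass (0.01, adjusted p = 0.997).

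Among 26 inflammatory cytokines and chemokines, 3 were called higher with G-CSF and 1 with IL-6. The median was -0.06 and turned to 0.04 without the first GM-CSF+IL-6 array and 0.06 without the first GM-CSF+G-CSF array. Il1b was 8.81, 9.37 and 9.81 against 10.42, 10.56 and 10.35 (1.11 ± 0.24, adjusted p = 0.00598). Il18 was 5.53, 4.85 and 6.23 against 6.37, 7.10 and 6.41 (1.09 ± 0.18, adjusted p = 0.000518). Csf1, the macrophage growth factor, was 7.47, 7.81 and 8.20 against 8.83, 9.30 and 8.87 (1.17 ± 0.18, adjusted p = 0.00021). These 3 were without overlap. Il1b lost its call without the first GM-CSF+IL-6 array and Il18 without the second. The platelet-type chemokine Pf4 was the gene higher with IL-6, at 9.08, 9.07 and 9.58 against 7.72, 8.09 and 8.22 (1.23 ± 0.32, adjusted p = 0.0228), and was called neither in the narrow arrays alone nor without the first or second GM-CSF+IL-6 or the first GM-CSF+G-CSF array. Named after their values had been seen, the TNF receptor Tnfrsf1b (1.28 ± 0.17), the interferon gamma receptor chain Ifngr2 (1.24 ± 0.27), the IL-12 subunit Il12a (1.09 ± 0.22) and coagulation factor F10 (1.14 ± 0.19) were also called higher with G-CSF. Ifngr2 lost its call without the first GM-CSF+IL-6 or the third GM-CSF+G-CSF array, and Il12a in the narrow arrays alone.

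Matrix genes split between the cultures. Of 16, Fn1 was called higher with IL-6, and Tgfbi (1.31 ± 0.14, adjusted p = 9.29e-07) and Mmp19 (1.50 ± 0.43, adjusted p = 0.046) higher with G-CSF. Tgfbi, a secreted adhesion protein, was 9.21, 9.36 and 10.43 against 10.75, 11.38 and 10.79 and did not overlap. The metalloproteinase Mmp19 was 3.87, 3.92 and 5.36 against 5.24, 6.88 and 5.53, with overlap, and lost its call on leaving out any 1 array. Below 2-fold, the adjusted p alone was passed by Mmp14 (0.66 ± 0.12), Mmp2 (0.78 ± 0.20) and Timp2 (0.71 ± 0.16) higher with G-CSF and by the urokinase Plau (0.64 ± 0.17) higher with IL-6. The 5 matrix genes past the adjusted p on the G-CSF side became 2 without the first GM-CSF+IL-6 array and 3 without the third GM-CSF+G-CSF array or the second GM-CSF+IL-6 array.

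Monocyte and macrophage genes also split, with 1 of 22 called higher with IL-6, 2 higher with G-CSF and a median of -0.08. Cd68, a lysosomal glycoprotein of macrophages, was 9.39, 9.59 and 10.62 against 10.68, 11.16 and 10.84 (1.02 ± 0.18, adjusted p = 0.00079). The transcription factor Maf was 5.09, 5.13 and 6.51 against 5.99, 7.64 and 6.72 (1.20 ± 0.19, adjusted p = 0.000254), with overlap between the wide-spread GM-CSF+IL-6 array and the narrow GM-CSF+G-CSF arrays. Cd68 lost its call without the first GM-CSF+IL-6 or the first or the third GM-CSF+G-CSF array, and Maf without the third. Ccr2 was the member higher with IL-6. C1qa (0.97 ± 0.16) and C1qc (0.71 ± 0.20), chains of the first complement component, passed the adjusted p higher with IL-6, at levels of 3.86 to 5.62 that were far below the 8.38 or more of the 24 other arrays. C1qc passed on leaving out 1 array only for the first GM-CSF+G-CSF array. Ctsb and Lgmn passed the adjusted p under 2-fold in the other direction, higher with G-CSF. Neither did so without the first GM-CSF+IL-6 or the third GM-CSF+G-CSF array, nor Lgmn without the second GM-CSF+IL-6 array. In all, 3 members of the list passed the adjusted p higher with IL-6 and 4 higher with G-CSF. The list's median was -0.01 in the narrow arrays alone and -0.16 without the second GM-CSF+IL-6 array. Csf1r (0.09) and Adgre1, a surface receptor of macrophages (0.16), did not pass.

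The granule lists, of genes that mark neutrophil development, gave few calls. Of 10 measured members of the primary granule list 1 was called, and of 23 of the later granule list 1, both higher with G-CSF. These were the receptor gene Clec5a and the mitochondrial arginase gene Arg2. The granule protein genes Mpo, Elane, Prtn3, Ctsg, Ltf, Camp, Ngp, Mmp8 and Mmp9 were not called. The medians of the lists were -0.10 and -0.08. Clec5a lost its call on leaving out any 1 of the narrow arrays. The primary granule median had no stable sign, being 0.10 in the narrow arrays alone, 0.13 without the first GM-CSF+G-CSF array and -0.49 without the third, and the later granule median was -0.16 without the second GM-CSF+IL-6 array. Myeloperoxidase, Mpo, was 10.36, 10.31 and 10.53 with IL-6 and 10.46, 11.23 and 9.12 with G-CSF (0.13, adjusted p = 0.946), and neutrophil elastase, Elane, was 9.50, 9.56 and 9.89 against 9.60, 10.01 and 8.47 (0.29, adjusted p = 0.845). The GM-CSF+G-CSF arrays spread around the GM-CSF+IL-6 ones for both. Lactoferrin, Ltf, was between 13.38 and 13.72 on the 6 arrays and Ngp between 13.72 and 13.99, near the top of the scale where arrays compress differences. The cathelicidin Camp was 12.75, 13.06 and 12.93 against 12.07, 11.85 and 11.76 and did not overlap, but missed the threshold (1.02, adjusted p = 0.0656). The collagenase Mmp8 was 11.38, 11.47 and 11.55 against 12.40, 12.32 and 12.27, without overlap in the other direction (-0.86, adjusted p = 0.127). Among all 18194 genes, 1154 (6.34%) had no overlap between the 3 and 3 values.

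Effectors of suppression, by which MDSC hold back T cells, gave 1 call, Arg2, among 21 measured, with 10 members above 0, 11 below and a median of -0.04, which was 0.02 with housekeeping centring. Nos2, the inducible nitric oxide synthase, was 5.67, 5.37 and 4.52 with IL-6 and 5.55, 4.71 and 5.63 with G-CSF (-0.11, adjusted p = 0.928). Cd274, or PD-L1, was 7.90, 8.16 and 8.55 against 8.33, 8.73 and 8.41 (-0.29, adjusted p = 0.642). Il10 (0.17), Tgfb1 (0.13), Ptgs2 (0.40) and Vegfa (0.22) did not pass either. The calgranulins S100a8 (-0.07) and S100a9 (-0.05) were at 13.86 or more on every array. Il4ra, a receptor chain used to define MDSC, was 7.65, 7.45 and 7.66 against 8.10, 8.06 and 8.25; it did not overlap and did not pass (-0.55, adjusted p = 0.459). Irf8 was -0.36 (adjusted p = 0.404). The oxidase subunit Cybb read 0.01 in its brightest probe set and -1.31 in another, so its difference depends on the probes.

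Cell cycle genes leaned to IL-6 without a 2-fold call. Of 29, 27 had a difference above 0, 13 passed an unadjusted p of 0.05 in limma, 6 passed the adjusted p and 0 were called, with a median of 0.32. Among all 18194 genes, 2664 passed that unadjusted p in either direction, and 2.54% passed the adjusted p higher with IL-6. The 6 were the replication helicase subunits Mcm7 (0.77 ± 0.12, adjusted p = 0.000245) and Mcm2 (0.47 ± 0.12), the mitotic genes Cdc20 (0.65 ± 0.18), Birc5 (0.63 ± 0.17) and Cenpe (0.49 ± 0.14), and cyclin E1, Ccne1 (0.53 ± 0.15). Mcm7 was 10.21, 10.17 and 10.57 against 9.52, 9.97 and 9.17, and fresh marrow had 10.75. The 6 became 3 in the narrow arrays alone, and 1 on leaving out any 1 of the narrow arrays or the term. Single members of metabolic lists passed the adjusted p higher with IL-6, namely the glycolytic enzyme Pfkp (0.87 ± 0.14), the amino acid transporter Slc7a5 (0.79 ± 0.15) and the fatty acid enzymes Fasn (0.60 ± 0.18) and Acaca (0.50 ± 0.15). Pfkp and Slc7a5 passed on leaving out each array in turn, while Fasn and Acaca did not pass without any 1 of the 6. The size for Pfkp rests on its brightest probe set, since its others read -0.23 and 0.23. With the mean of all probe sets, 0 hypoxia and glycolysis genes passed the adjusted p. Interferon-stimulated genes gave 0 calls in limma among 22, with a median of 0.18 (0.09 in the narrow arrays alone). At an unadjusted p below 0.05 in limma, 3 were higher with IL-6 and 2 higher with G-CSF. The adjusted p was passed by 0 members higher with IL-6 and 1 higher with G-CSF, Irf9. On leaving out 1 array, Irf9 passed only for the first GM-CSF+G-CSF array.

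Markers of other cells that could come through a CD11b gate were described in the same way. The progenitor list had a summed log2 level of 54.8 to 55.8 on the GM-CSF+IL-6 arrays and 52.0 to 53.8 on the GM-CSF+G-CSF arrays, with 1 of 9 called. That member was Cd34, a surface sialomucin of progenitors, mast cells and endothelium, at 7.16, 7.03 and 7.72 against 5.66, 6.37 and 5.57 (1.44 ± 0.25, adjusted p = 0.000876), against 3.58 in fresh marrow. Gata2, of progenitors and mast cells, passed the adjusted p (0.85 ± 0.19, adjusted p = 0.00751), though not in the narrow arrays alone. The gap in the summed progenitor level rests on Cd34 and Gata2. The list's median difference was 0.22, with 7 members above 0 and 2 below. The platelet list (7 genes) summed to 47.0 to 48.0 and 45.9 to 46.7, with Pf4 as its 1 call, which held in 1 of the 6 fits that left out an array. Its gap in the sum rests on Pf4, since the list's median difference was 0.02, with 4 members above 0 and 3 below. The eosinophil list (7 genes) summed to 40.7 to 42.4 and 38.2 to 40.4, with 0 calls in limma and 1 gene at an unadjusted p below 0.05. These sums did not overlap, and the list's median difference was 0.21, with 6 members above 0 and 1 below. Its members Ear1, Ear2, Ear6, Ear10 and Ear11 were not measured. In limma, B cells had 0 of 11 called, T cells 0 of 10, NK cells 0 of 8, erythroid cells 0 of 8 and mast cells and basophils 0 of 13. Blnk of the B cell list (0.76 higher with IL-6) and Cd28 of the T cell list (0.89 higher with G-CSF) passed the adjusted p. Neither did so in the narrow arrays alone. Beside 2664 of all 18194 genes, these lists of other cells held 2, 2, 0, 1 and 1 genes at an unadjusted p below 0.05 in limma. Their summed levels overlapped between the cultures: 55.4 to 58.0 and 53.4 to 57.5 for B cells, 48.8 to 52.6 and 48.8 to 52.9 for T cells, 32.8 to 39.4 and 34.1 to 38.6 for NK cells, 47.2 to 51.8 and 47.5 to 51.6 for erythroid cells and 65.2 to 70.9 and 64.4 to 70.1 for mast cells and basophils. Pecam1 was the 1 call among 12 stromal and endothelial genes, higher with G-CSF (1.05 ± 0.26), and was not called in the narrow arrays alone or without the first array of either culture. RMA values have no 0, so absence of a marker cannot be read from them, and the part of these cells in the results was not tested.

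Set against fresh marrow, called genes differed in where they lay. Of the 98 genes higher with IL-6, both culture means were above the fresh marrow mean for 50, fresh marrow lay between the cultures for 24, and it lay above both for 24. Of the 48 genes higher with G-CSF, the counts were 20, 13 and 15. Ccl17, H2-Aa, H2-Ab1, H2-Eb1, H2-Ea, H2-DMb2 and Plet1 were above fresh marrow in both cultures, H2-Ob and Retnla were split around it, and Fn1 was below it in both. These positions are descriptions, because the fresh marrow arrays had a spread of values (SD 2.16 to 2.21) nearer to that of the wide-spread than of the 4 narrow culture arrays.

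The 2 array sets gave the same sign for all 146 called genes, which were chosen with these arrays and so had to lean that way. The median size among them was 1.32 in the 4 narrow arrays and 1.21 in the 2 wide-spread ones. Of the 146, 120 had no overlap between the 3 and 3 values and 26 did, beside 6.34% of all genes without overlap. Genes whose size depended on the array set, named after their values had been seen, include the splicing factors Srrm2, at 9.78, 9.67 and 9.90 against 7.65, 9.10 and 7.58, and Sfpq, at 7.70, 7.73 and 8.15 against 5.39, 7.77 and 5.69. For both, the wide-spread GM-CSF+G-CSF array lay near the GM-CSF+IL-6 values, and the narrow difference (2.11 and 2.18) was far above the wide-spread one (0.80 and 0.38). Both sizes also rest on 1 probe set, at 1.67 for Srrm2 and 1.58 for Sfpq over all 6 arrays. The other probe sets read 0.11 and 0.21 for Srrm2 and -0.18 to 0.04 for Sfpq.

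**Figure D5:**
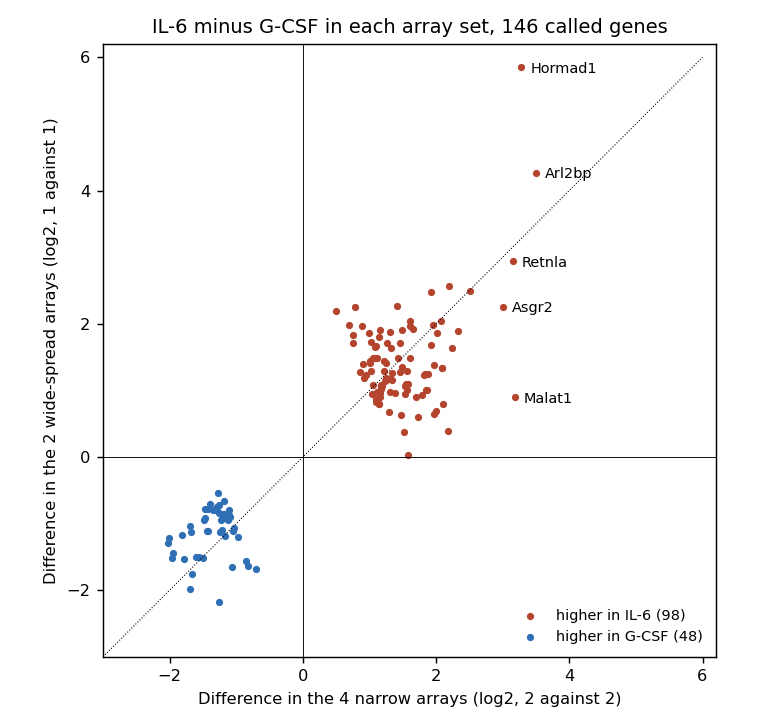
For the 146 called genes, the GM-CSF+IL-6 minus GM-CSF+G-CSF difference in the 4 narrow arrays (x axis, log2, 2 against 2) and in the 2 wide-spread arrays (y axis, log2, 1 against 1), with equality dotted. All points lie in the 2 quadrants of equal sign; Hormad1 lies above the line (3.28 and 5.85) and Malat1 below it (3.18 and 0.90).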

How the data were processed

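The deposited values are log2 expression from RMA, per the submitters' processing notes, for 45101 probe sets on 30 arrays; the RMA version was not given in the sources used here, and arrays carry no depth, so their number limits precision. Of the probe sets, 34958 had 1 gene symbol, 932 several and 9211 none. Each gene was read from its probe set with the highest mean, which left 18194 genes. All 30 arrays in 10 groups entered 1 model in limma 3.58.1 (R 4.3.3) with a term for the 2 wide-spread arrays and Benjamini-Hochberg adjustment. Standard errors pool the spread of all groups and can understate that of groups that vary more. On simulated data, with normal noise of 1 size per gene in all groups, 94% of 2-fold changes passed the adjusted p in the right direction. The 2-fold minimum of a call was not applied there, so 94% is not the share that would be called. Named genes are the 10 largest called differences each way without overlap, passing over predicted transcripts, a panel of 25 genes, up to 4 called members (or 2 others) of each of 33 lists and families of these; other list members were named after their values had been seen. Members and lists were chosen with earlier results of these data known. Promoters came from RefSeq. Alternatives covered normalization, filters, probe sets, variance models, array sets, the replicate block and leaving out each array. Figures were drawn with matplotlib.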

Additional observations from a re-analysis of the deposited data

How the results depend on the processing

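The 98 genes higher with IL-6 and 48 higher with G-CSF stayed within 1.5 times these counts under most of 22 alternatives. They were 30 and 7 in the wide-spread arrays alone, where 1 array stands for each culture and is assumed to vary like the other groups; 43 of the named genes lost their call there. The 98 were 61 with the mean of all probe sets, and the counts were 463 and 290 with no minimum fold change. Leaving out 1 array gave 86 to 105 genes higher with IL-6 and 29 to 65 higher with G-CSF. Of the called genes 64 and 19 were called in all 6 such fits. Of 56 named genes called, 38 were called in all 6 and 10 under every alternative, and Malat1 alone reversed, to -0.88 without probe sets that may cross-hybridise. The cause of these changes was not tested.

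With the replicate number as a block and the term, 97 and 47 genes were called, and of the named genes only Mmp19 changed its call. The block without the term, an alternative chosen after seeing the data, gave 85 and 39. The labels give the cultures only a shared number. The correlation of same-numbered arrays' deviations (0.79, -0.85 and -0.80 for numbers 1, 2 and 3) cannot show a pairing, because a wide-spread array meets a narrow one at numbers 2 and 3. Housekeeping centring moved the median of all genes by 0.06. RMA values near the array's lowest values cannot be told from background, which limits Hormad1.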

Other observations

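Lysosome and lipid handling genes, a list the report does not describe, gave 1 call among 21, Atp6v0d2, with 17 members below 0 and a median of -0.22. The adjusted p alone was passed by 4 members, all higher with G-CSF, which became 1 without the first GM-CSF+IL-6 array, the third GM-CSF+G-CSF array or the term, and 2 without any other array. Besides Atp6v0d2 they were the lysosomal galactosidase Gla (0.91 ± 0.18), the cathepsin Ctsb (0.53 ± 0.12) and the lipid droplet coat protein Plin2 (0.51 ± 0.14). Ctsb was 11.45, 11.73 and 11.87 with IL-6 and 12.07, 12.28 and 12.31 with G-CSF, without overlap, and did not pass without the first GM-CSF+IL-6 or the third GM-CSF+G-CSF array. Plin2 did not pass on leaving out any 1 array, while Gla passed in all 6 such fits.

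Homing genes differed by member. Itgb7, the integrin chain that pairs with Itgae, was 7.45, 7.33 and 8.08 with IL-6 and 6.74, 7.09 and 6.67 with G-CSF (0.79 ± 0.14, adjusted p = 0.00117). Itgal, of the integrin LFA-1, passed the adjusted p in the same direction (0.64 ± 0.15, adjusted p = 0.0096), and the chemokine receptor Ccr1 passed it higher with G-CSF (0.71 ± 0.18, adjusted p = 0.0215). Itgb7 passed on leaving out each array in turn, Itgal did not without the second GM-CSF+IL-6 or the third GM-CSF+G-CSF array, and Ccr1 did not on leaving out any 1 array. The common Fc receptor chain Fcer1g was 11.55, 11.73 and 11.86 against 12.10, 12.10 and 12.11, higher with G-CSF by 0.39 ± 0.11 (adjusted p = 0.0395), and did not pass on leaving out any 1 array. Of 9 housekeeping genes measured, Hprt passed the adjusted p, higher with G-CSF (0.43 ± 0.11, adjusted p = 0.0221), with 0 called in limma and 2 at an unadjusted p below 0.05. Hprt passed on leaving out 1 array only for the second GM-CSF+IL-6 array.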
